A study of Homo sapiens with 3 samples.

Results

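The collagen chain genes are the genes whose symbol consists of COL, a type number, A and a chain number. Where a library does not list one of them, its level there was taken as 0. Of the 44 human genes of this family on the class list used here, 27 were listed in at least 1 library, out of 16149 genes in all, and 17 were listed in none under such a symbol. The mRNA was sequenced from 3 cell lines with 1 library each. By the labels the parent is HCCLM3, a human hepatocellular carcinoma (HCC) line low in metastatic ability, whereas the study's methods name as parental line HCCLM3-R, a line that expresses red fluorescent protein, and call it high. Subclone1 is labelled as specific to the lung, and subclone2 as able to reach both the lung and the celiac lymph node. By the methods, each subclone is a single cell–derived line, grown out of lung or lymph node metastases of the parent in nude mice, and which clones were sequenced is not given in the sources used here. All 3 were cultured in DMEM without further treatment named, so that a subclone stands for 1 clone and not for a class of metastases.

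Collagens are extracellular proteins whose chains fold into trimers before they leave the cell. Fibrillar types build the tensile fibers of connective tissue, network types such as type IV build basement membranes, and type VI forms beaded filaments around cells. In the liver most fibrillar collagen comes from stellate cells and fibroblasts, while epithelial cells contribute mainly basement membrane and transmembrane types.

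The deposited value of a gene is its RPKM, the reads scaled to gene length and library total, so that levels of different genes can be compared per length. The 3 libraries held 4488825, 4609696 and 4725150 reads in the parent, subclone1 and subclone2, as recovered from the RPKM, and whole reads could be given to 26 of the 27 collagen genes. Intervals of single genes are exact 95% intervals on these reads, those of summed levels are approximate, and all cover counting error only. They compare libraries, because no cell line had a replicate and no difference between lines was tested; both subclone ratios share the parent library. RNA from a whole culture also cannot tell fewer expressing cells from less RNA per cell. Hepatocyte markers were present in each library (15 of 16 listed in any, summed level 2635, 2889 and 2953 RPKM, mostly KRT8 and KRT18). Of these 15, 13 were higher by any amount in both subclones than in the parent. Among them were ALB with 2.46, 49.5 and 68.8 RPKM, FGB with 1.66, 14.5 and 5.60 RPKM, FGG with 0.126, 4.80 and 3.60 RPKM and APOB with 0.300, 1.23 and 4.17 RPKM. Others hardly differed, such as KRT8 (1614, 1641 and 1742 RPKM), HNF4A between parent and subclone1 (11.7 and 11.9 RPKM) and TF between parent and subclone2 (5.71 and 5.88 RPKM). Of 11370 genes with a mean of at least 1 RPKM, 5732 were higher than in the parent in subclone1 and 6083 in subclone2. The share higher in both was not counted. Of 12 markers of fibroblasts or stellate cells other than collagens, PDGFRA, PDGFRB, FAP, POSTN, ACTA2 and DPT were listed in no library, and THY1 had 0, 1 and 1 reads. The summed level of this list was 38.8 RPKM in the parent, 70.1 RPKM in subclone1 and 65.7 RPKM in subclone2, led by FBLN1 (25.9, 39.8 and 41.4 RPKM) and LUM (10.1, 24.0 and 21.0 RPKM). Of its 6 listed genes, 4 were higher in both subclones than in the parent, and TAGLN (1.84, 1.79 and 0.403 RPKM) and RGS5 (4, 1 and 3 reads) were lower in both. Of 6 endothelial markers 5 were listed (sums of 5.11, 11.9 and 7.60 RPKM, mostly PECAM1 with 3.33, 9.81 and 4.46 RPKM). PECAM1 and KDR (37, 54 and 88 reads) were higher in both subclones than in the parent. VWF (2, 1 and 1 reads) and TEK (8, 2 and 1 reads) were lower in both. Of 4 leukocyte markers 3 were listed (sums of 75.5, 113.3 and 99.6 RPKM, nearly all CD68). The part of all these markers in the collagen results was not tested.

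The collagen transcripts of these cells were mostly type VI. The summed level of all collagen genes was 221.5 RPKM in the parent, 340.8 RPKM in subclone1 and 273.3 RPKM in subclone2, which is 0.0534%, 0.0817% and 0.0652% of all RPKM. Type VI chains held 81.7% of this sum in the parent, 81.8% in subclone1 and 83.9% in subclone2. The sum was 1.54 times as high in subclone1 as in the parent (log2 ratio 0.62, interval 0.57 to 0.68) and 1.23 times as high in subclone2 (log2 ratio 0.30, 0.25 to 0.36). Subclone2 was thus between the other libraries, with a log2 ratio of -0.32 over subclone1 (-0.37 to -0.27).

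Only 9 of the 27 collagen genes reached a mean of 1 RPKM, against 11370 of all 16149 genes. They were COL6A1, COL6A2, COL18A1, COL5A2, COL6A3, COL17A1, COL4A5, COL27A1 and COL3A1. The other 18 collagen genes had a lower mean, with medians of 0.185, 0.251 and 0.103 RPKM in the parent, subclone1 and subclone2. In all, 26 collagen genes were listed in the parent, 25 in subclone1 and 23 in subclone2, and 21 in all 3. Of all 16149 genes, 14703, 14900 and 14931 were listed in the parent, subclone1 and subclone2. Collagen genes listed in only some libraries had at most 2 reads in any, apart from COL5A1 with 13 reads in subclone1. By class, 9 of 11 fibrillar genes were listed, 4 of 6 of type IV, 3 of 5 of type VI, 6 of 10 of the FACIT collagens that sit on fibril surfaces, 1 of 4 transmembrane collagens, 1 of 2 multiplexins, 1 of 3 of types VIII and X, 1 of 1 of type VII and 1 of 2 of types XXVI and XXVIII. The genes in no library included COL2A1, COL10A1 and COL11A1 of cartilage and COL15A1, the other multiplexin. They also included COL8A1, COL13A1, COL14A1, COL19A1, COL20A1, COL22A1, COL23A1, COL25A1, COL26A1, COL4A3, COL4A4, COL6A5 and COL6A6. The deposited values use some older symbols, such as LEPREL1 for P3H2. A collagen gene deposited under another kind of symbol would count here as not listed.

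**Figure D1:**
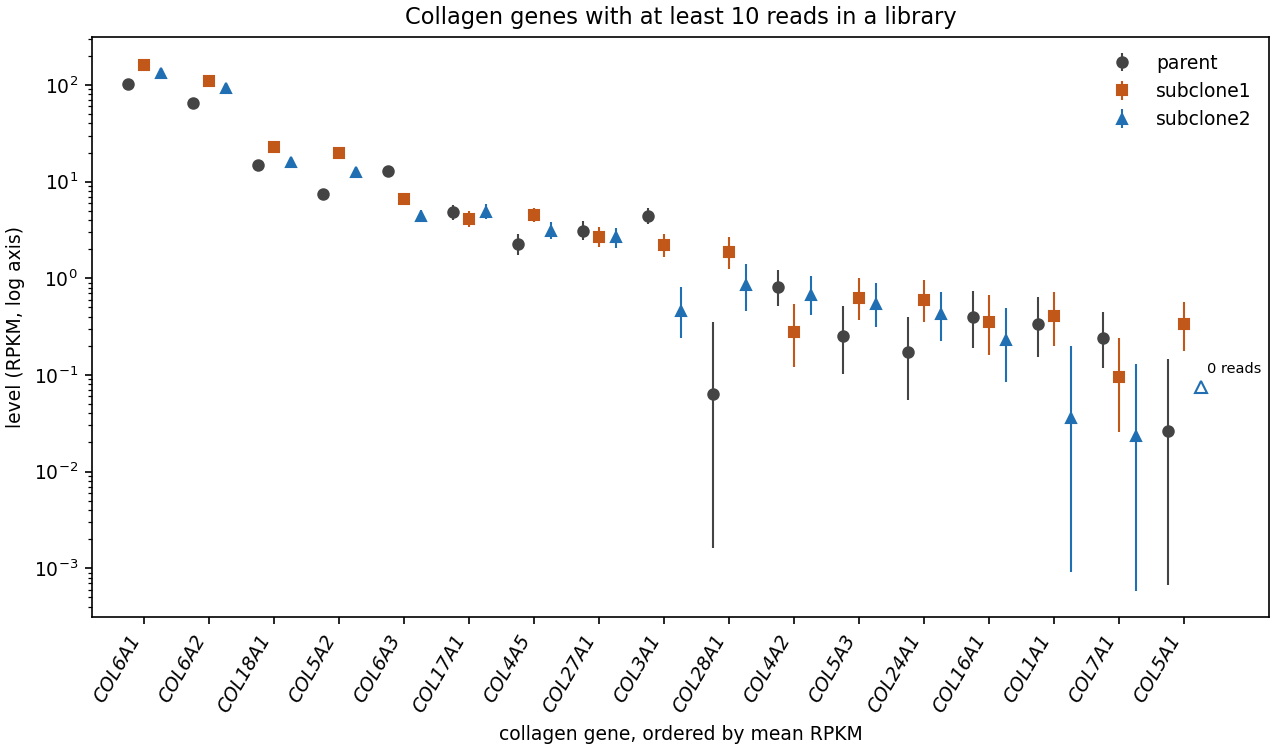
Level in RPKM (log axis) of the 17 collagen genes with at least 10 reads in a library, ordered by mean; circles are the parent, squares subclone1 and triangles subclone2, bars are 95% Poisson intervals, and an open symbol marks 0 reads at the level of 3 reads. COL6A1 and COL6A2 lie far above the rest in every library, and COL6A3 and COL3A1 are highest in the parent and lowest in subclone2, with intervals that do not overlap.

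The type VI chains did not differ in parallel between the libraries. COL6A1, which encodes the alpha-1 chain, had 103.5 RPKM in the parent (1972 reads, interval 98.9 to 108.1), 162.7 RPKM in subclone1 (3184 reads, 157.1 to 168.4) and 132.2 RPKM in subclone2 (2652 reads, 127.2 to 137.3). COL6A2, which encodes the alpha-2 chain, had 64.4 RPKM in the parent (1001 reads, 60.5 to 68.6), 109.3 RPKM in subclone1 (1744 reads, 104.2 to 114.6) and 92.7 RPKM in subclone2 (1516 reads, 88.1 to 97.5). For both genes subclone1 was highest, subclone2 next and the parent lowest, with no overlap of intervals. COL6A3, which encodes the much longer alpha-3 chain that completes the usual type VI trimer, had 13.0 RPKM in the parent (618 reads, 12.0 to 14.1), 6.67 RPKM in subclone1 (326 reads, 5.97 to 7.44) and 4.45 RPKM in subclone2 (223 reads, 3.89 to 5.08). Its order was the reverse, highest in the parent, and again no intervals overlapped.

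In subclone1 over the parent, COL6A1 was 1.57-fold higher (1.49 to 1.66) and COL6A2 1.70-fold higher (1.57 to 1.84), while COL6A3 was 1.95-fold lower (1.70 to 2.23). In subclone2 over the parent, COL6A1 was 1.28-fold higher (1.20 to 1.35) and COL6A2 1.44-fold higher (1.33 to 1.56), while COL6A3 was 2.92-fold lower (2.50 to 3.42). Between the subclones all 3 chains were lower in subclone2, COL6A1 by 1.23-fold (1.17 to 1.30), COL6A2 by 1.18-fold (1.10 to 1.26) and COL6A3 by 1.5-fold (1.26 to 1.78). Because the class is dominated by the first 2 chains, its summed level followed them, with log2 ratios of 0.62 in subclone1 and 0.34 in subclone2 over the parent.

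The ratio of chains within a library does not depend on how libraries are scaled to each other. COL6A3 stood at 12.6% of COL6A1 in the parent (11.5% to 13.7%), 4.10% in subclone1 (3.65% to 4.60%) and 3.37% in subclone2 (2.93% to 3.86%). Both subclones lay below the parent, and their own intervals overlapped. COL6A2 stood at 62.3% of COL6A1 in the parent (57.7% to 67.2%), 67.2% in subclone1 (63.3% to 71.3%) and 70.1% in subclone2 (65.8% to 74.7%), and all of these intervals overlapped. Separate intervals that overlap do not show that ratios are alike. The change of a chain ratio between libraries was not given an interval of its own. The chains COL6A5 and COL6A6, which can take the place of the alpha-3 chain, were listed in no library.

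**Figure D2:**
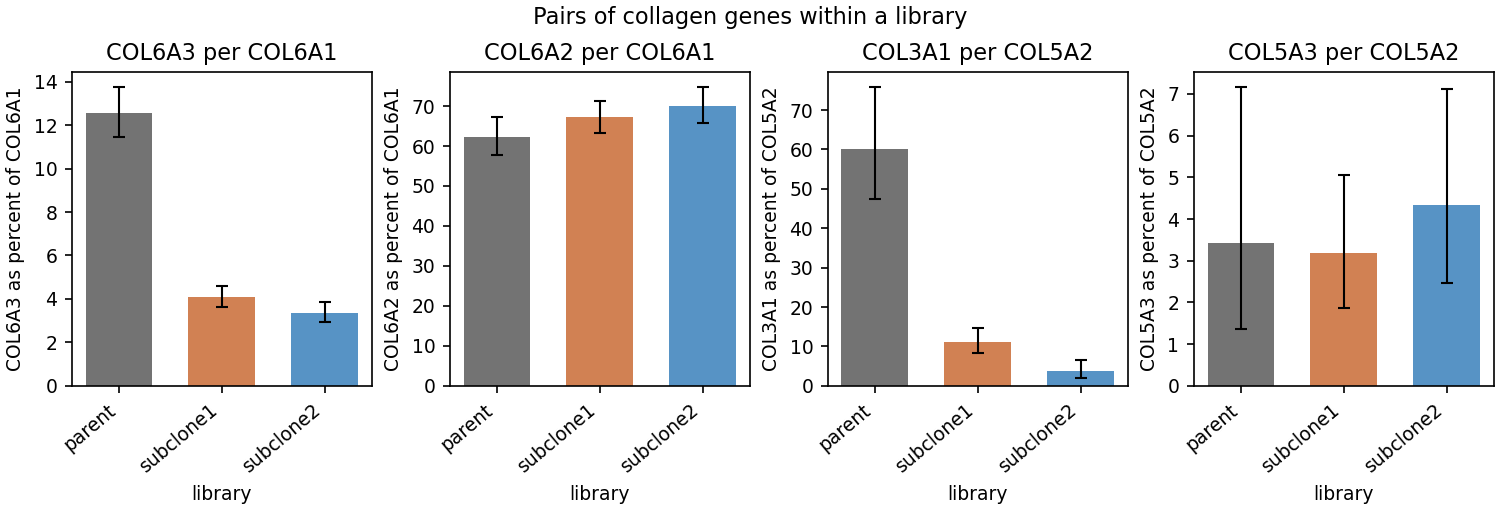
RPKM of 1 collagen gene as percent of another in the same library, for COL6A3 and COL6A2 per COL6A1 and for COL3A1 and COL5A3 per COL5A2; bars start at 0 and error bars are 95% counting intervals. COL6A3 per COL6A1 is 12.6% in the parent against 4.10% and 3.37% in the subclones, COL3A1 per COL5A2 is 60.1% against 11.1% and 3.67%, and the intervals of the other pairs overlap. Overlap of intervals does not show that ratios are alike.

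COL6A1 and COL6A2 are neighbours on chromosome 21 with 0 protein-coding genes between them in the RefSeq gene table, and COL18A1 lies near them with 1 such gene wholly between it and COL6A1, PCBP3. SLC19A1, which overlaps COL18A1, was not counted. COL6A3 is on chromosome 2. The promoter windows of COL6A2 and COL6A3 are shown because these chains of 1 trimer differed in opposite directions. Each window is 300 bases of RefSeq GRCh38.p14, which is not the hg19 build of the deposited values, from 250 bases before the start of the transcript to 50 after, read on the gene's strand. Capitals mark the GC box GGGCGG and the TATA box TATAAA on either strand.
COL6A2, chr21:46097862-46098161, plus strand: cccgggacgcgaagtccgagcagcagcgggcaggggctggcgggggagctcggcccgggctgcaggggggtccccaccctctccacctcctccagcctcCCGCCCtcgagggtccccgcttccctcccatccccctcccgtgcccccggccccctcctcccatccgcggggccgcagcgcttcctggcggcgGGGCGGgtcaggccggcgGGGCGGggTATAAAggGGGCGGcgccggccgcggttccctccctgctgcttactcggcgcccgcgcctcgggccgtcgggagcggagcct
COL6A3, chr2:237414115-237414414, minus strand: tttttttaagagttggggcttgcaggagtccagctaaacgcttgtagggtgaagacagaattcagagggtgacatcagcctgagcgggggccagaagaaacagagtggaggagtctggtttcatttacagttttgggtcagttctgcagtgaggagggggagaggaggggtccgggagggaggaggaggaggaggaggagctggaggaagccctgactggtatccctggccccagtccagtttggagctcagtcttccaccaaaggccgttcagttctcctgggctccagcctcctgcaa
The COL6A2 window held 4 GC boxes, 1 TATA box and 36 CG pairs at 79.3% G and C. The COL6A3 window held 0 of either box and 4 CG pairs at 56.3% G and C. Of 35116 such windows in the table, 45.0% held a GC box and 11.5% a TATA box on either strand, and the median number of CG pairs was 14 with quartiles of 4 and 28. These matches describe the letters only. The table held windows for 21 of the 27 collagen genes (31 windows), and none for COL1A1, COL1A2, COL3A1, COL5A2, COL6A1 and COL9A3.

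The fibrillar collagens were led by COL5A2, not by type I or type III. COL5A2 encodes the alpha-2 chain of type V, a minor collagen that joins larger fibrils. It had 7.36 RPKM in the parent (229 reads, 6.44 to 8.38), 19.8 RPKM in subclone1 (634 reads, 18.3 to 21.5) and 12.6 RPKM in subclone2 (413 reads, 11.4 to 13.9). The level in subclone1 was 2.70-fold that of the parent (2.31 to 3.15), at percentile 97.4 of the log2 ratios of 11370 genes with a mean of at least 1 RPKM, and the level in subclone2 was 1.71-fold that of the parent (1.45 to 2.02). Subclone2 was 1.57-fold lower than subclone1 (1.39 to 1.79).

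The other chains of type V were present at traces. COL5A1, whose chain normally pairs with that of COL5A2, had 1 read in the parent (0.0264 RPKM), 13 reads in subclone1 (0.334 RPKM, 0.178 to 0.571) and 0 reads in subclone2, which allows up to 0.0752 RPKM at 3 reads. Against that limit, with the 13 reads taken as they are, it was at least 4.44-fold lower in subclone2 than in subclone1, and the interval of the ratio, which also holds the error of the 13 reads, began at 3.12-fold lower. Its ratio in subclone1 over the parent was 12.7 with a counting interval from 1.90 to 538. COL5A3, the third chain of type V, had 7, 18 and 16 reads (0.252, 0.631 and 0.547 RPKM), and its fold of 2.50 in subclone1 over the parent had an interval from 0.998 to 7.09, so that a difference was not detectable at this depth. Per length, COL5A1 stood at 0.359% of COL5A2 in the parent (0.00904% to 2.02%) and 1.68% in subclone1 (0.892% to 2.90%), and subclone2 had no read. COL5A3 stood at 3.42%, 3.18% and 4.34% of COL5A2, with intervals that overlapped throughout. The COL5A1 locus overlaps the antisense gene COL5A1-AS1 in RefSeq, and whether reads were counted by strand is not given in the sources used here.

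COL3A1, the chain of type III that accompanies type I in extensible tissues, was highest in the parent. It had 4.42 RPKM in the parent (109 reads, 3.63 to 5.34), 2.21 RPKM in subclone1 (56 reads, 1.67 to 2.87) and 0.463 RPKM in subclone2 (12 reads, 0.239 to 0.808). The intervals of the 3 libraries did not overlap. Subclone1 was 2.0-fold lower than the parent (1.44 to 2.81) and subclone2 was 9.56-fold lower (5.26 to 19.1), at percentile 0.255 of all log2 ratios. Subclone2 was also 4.78-fold lower than subclone1 (2.53 to 9.80).

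COL3A1 and COL5A2 are neighbours on chromosome 2, with 0 protein-coding genes between them in the RefSeq table. Within a library, COL3A1 stood at 60.1% of COL5A2 in the parent (47.4% to 75.8%), 11.1% in subclone1 (8.33% to 14.7%) and 3.67% in subclone2 (1.88% to 6.48%). These intervals were apart in all 3 libraries, so that the adjacent genes differed between libraries in a way that no scaling of the libraries can remove. The summed level of the fibroblast and stellate markers was 38.8, 70.1 and 65.7 RPKM. Of the 6 listed markers, 4 were higher in both subclones than in the parent, as COL5A2 was, and 2 (TAGLN and RGS5) were lower in both, as COL3A1 was. TAGLN hardly differed between the parent and subclone1 (1.84 and 1.79 RPKM), and RGS5 had 4, 1 and 3 reads. The part of these markers in the COL3A1 and COL5A2 differences was not tested.

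Type I collagen, the main protein of scar and bone, was nearly absent. COL1A1 had 9, 11 and 1 reads in the parent, subclone1 and subclone2 (0.338, 0.403 and 0.0357 RPKM), and COL1A2 had 1, 1 and 0 reads. The ratio of COL1A1 in subclone2 over the parent was 0.106, with a counting interval from 0.00241 to 0.762, and in subclone1 over the parent it was 1.19 (0.448 to 3.25). COL1A1 stood at 7.65%, 18.2% and 7.72% of COL3A1, with wide intervals that overlapped.

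The remaining fibrillar chains went separate ways. COL24A1, a fibrillar chain of developing bone and eye, had 5, 18 and 13 reads (0.171, 0.601 and 0.423 RPKM), which is 3.51-fold higher in subclone1 than in the parent (1.25 to 12.1) and 2.47-fold in subclone2 with an interval that included 1 (0.826 to 8.85). COL27A1, a fibrillar chain of cartilage, had 3.11 RPKM in the parent (78 reads), 2.68 RPKM in subclone1 (69 reads) and 2.65 RPKM in subclone2 (70 reads). Its fold was 0.861 in subclone1 (0.614 to 1.21) and 0.853 in subclone2 (0.608 to 1.19), so that no difference was detectable. COL11A2 had 1 read in the parent and 0 in the subclones, and COL11A1, its partner, was not listed. For the fibrillar sum, 15.8 RPKM in the parent, 26.7 RPKM in subclone1 and 16.7 RPKM in subclone2, the log2 ratio was 0.76 in subclone1 over the parent (0.60 to 0.93) and 0.09 in subclone2 (-0.10 to 0.27). The sum of subclone2 held less COL3A1 and more COL5A2 than that of the parent.

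Of the basement membrane chains, COL4A5 had the highest level and COL4A1 was close to 0. COL4A5, a chain best known from the glomerular basement membrane, had 2.25 RPKM in the parent (65 reads, 1.73 to 2.86), 4.54 RPKM in subclone1 (135 reads, 3.81 to 5.38) and 3.12 RPKM in subclone2 (95 reads, 2.52 to 3.81). It was 2.02-fold higher in subclone1 than in the parent (1.49 to 2.76) and 1.39-fold higher in subclone2 (1.00 to 1.93). These reads are the smallest whole numbers that fit, 13, 27 and 19, multiplied by 5 to reach the length of a transcript, 6445 bases. With the smallest reads themselves, an alternative chosen after the data were seen, the interval for subclone1 was 1.01 to 4.27 and that for subclone2 included 1 (0.651 to 3.06), as did that between the subclones. COL4A6, which lies head to head with COL4A5 on chromosome X, had 6, 7 and 3 reads (0.199, 0.226 and 0.0945 RPKM). COL4A6 stood at 8.85%, 4.97% and 3.03% of COL4A5, with overlapping intervals. COL4A3 and COL4A4, the usual partners of COL4A5 in the kidney, were listed in no library.

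COL4A1 and COL4A2 encode the chains of the common type IV trimer, which holds more of the COL4A1 chain, yet nearly all of the reads were of COL4A2. COL4A1 had 1, 1 and 0 reads in the parent, subclone1 and subclone2, and COL4A2 had 23, 8 and 20 reads (0.818, 0.277 and 0.676 RPKM). COL4A2 was 2.95-fold lower in subclone1 than in the parent (1.27 to 7.63) and 2.44-fold higher in subclone2 than in subclone1 (1.03 to 6.40), and the parent and subclone2 had overlapping intervals. COL4A1 stood at 4.16% of COL4A2 in the parent (0.101% to 25.6%). The COL4A2 locus overlaps the antisense genes COL4A2-AS1 and COL4A2-AS2, whose reads could not be separated here. This window is shown because the pair is transcribed in opposite directions from 1 stretch of chromosome 13, with 126 bases between the RefSeq starts, marked in capitals.
COL4A2, chr13:110307034-110307333, plus strand: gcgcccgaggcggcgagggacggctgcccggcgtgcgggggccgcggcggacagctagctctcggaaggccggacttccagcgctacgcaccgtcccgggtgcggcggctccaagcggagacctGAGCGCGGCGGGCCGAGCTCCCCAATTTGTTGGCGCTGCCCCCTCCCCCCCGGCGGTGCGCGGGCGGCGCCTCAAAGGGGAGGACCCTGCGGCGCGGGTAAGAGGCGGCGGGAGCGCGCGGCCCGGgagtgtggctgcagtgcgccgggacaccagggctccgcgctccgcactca
The COL4A2 window held 45 CG pairs and the COL4A1 window, which shares most of its bases, also 45. COL4A6 had more than 1 start in RefSeq, and the nearest of them had 379 bases between it and the start of COL4A5. The windows of both genes held at most 8 CG pairs.

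COL18A1, the multiplexin of basement membranes whose C-terminal part is released as endostatin, had the third highest level of all collagen genes. It had 15.0 RPKM in the parent (398 reads, 13.6 to 16.6), 22.9 RPKM in subclone1 (625 reads, 21.2 to 24.8) and 16.1 RPKM in subclone2 (450 reads, 14.7 to 17.7). Subclone1 stood above the others, 1.53-fold over the parent (1.35 to 1.74), while subclone2 over the parent was 1.07-fold with an interval that included 1 (0.936 to 1.23). The COL18A1 locus overlaps the protein-coding gene SLC19A1 and antisense genes in RefSeq, so that its reads may include theirs. COL17A1, a transmembrane collagen that anchors epithelial cells at hemidesmosomes, had 4.80 RPKM in the parent (121 reads), 4.10 RPKM in subclone1 (106 reads) and 4.90 RPKM in subclone2 (130 reads). All its fold intervals included 1, from 0.651 to 1.12 for subclone1 and from 0.791 to 1.32 for subclone2 over the parent. COL7A1, the collagen of anchoring fibrils, had 10, 4 and 1 reads (0.243, 0.0946 and 0.0231 RPKM). Its ratio in subclone2 over the parent was 0.0950, with a counting interval from 0.00219 to 0.668.

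COL28A1 had the largest log2 ratio, in subclone1 over the parent, of the 17 collagen genes with at least 10 reads in a library. It encodes the chain of type XXVIII, a collagen with von Willebrand factor A domains like those of type VI. The gene had 1 read in the parent (0.0634 RPKM), 30 reads in subclone1 (1.85 RPKM, 1.25 to 2.64) and 14 reads in subclone2 (0.843 RPKM, 0.461 to 1.41). Both subclones were above the parent, and subclone2 was 2.20-fold lower than subclone1 (1.13 to 4.48). With 1 read in the parent the ratio is poorly known, 29.2 in subclone1 (4.86 to 1192) and 13.3 in subclone2 (2.02 to 562). On the scale of log2 (RPKM + 0.1), which understates ratios of low genes, these were 3.58 and 2.53. Its promoter window is shown beside those of COL6A2 and COL6A3, with the same boxes searched.
COL28A1, chr7:7535824-7536123, minus strand: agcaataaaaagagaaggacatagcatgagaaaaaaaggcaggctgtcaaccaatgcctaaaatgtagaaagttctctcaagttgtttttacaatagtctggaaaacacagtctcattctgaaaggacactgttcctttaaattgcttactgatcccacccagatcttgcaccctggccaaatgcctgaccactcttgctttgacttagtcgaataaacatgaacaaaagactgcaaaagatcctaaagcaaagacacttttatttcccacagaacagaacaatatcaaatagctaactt
This window held 1 CG pair, no GC box or TATA box, and 38.0% G and C, so that no letter is in capitals.

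The FACIT and short-chain members were all below 1 RPKM. COL16A1, a FACIT found near basement membranes, had 10, 9 and 6 reads. The chains of type IX, a cartilage collagen, had 0, 1 and 2 reads for COL9A1, 3, 5 and 7 for COL9A2, and 4, 1 and 2 for COL9A3, whose locus overlaps TCFL5. COL12A1 had 1, 0 and 1 reads and COL8A2 had 1, 2 and 2. COL21A1 had 0.372, 0.362 and 0.353 RPKM, values in the inverse ratio of the library totals, so that its reads were equal in all 3 libraries but their number could not be resolved. Every fold interval among these genes included 1 where reads were resolved, and at such counts a difference was not detectable.

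**Figure D3:**
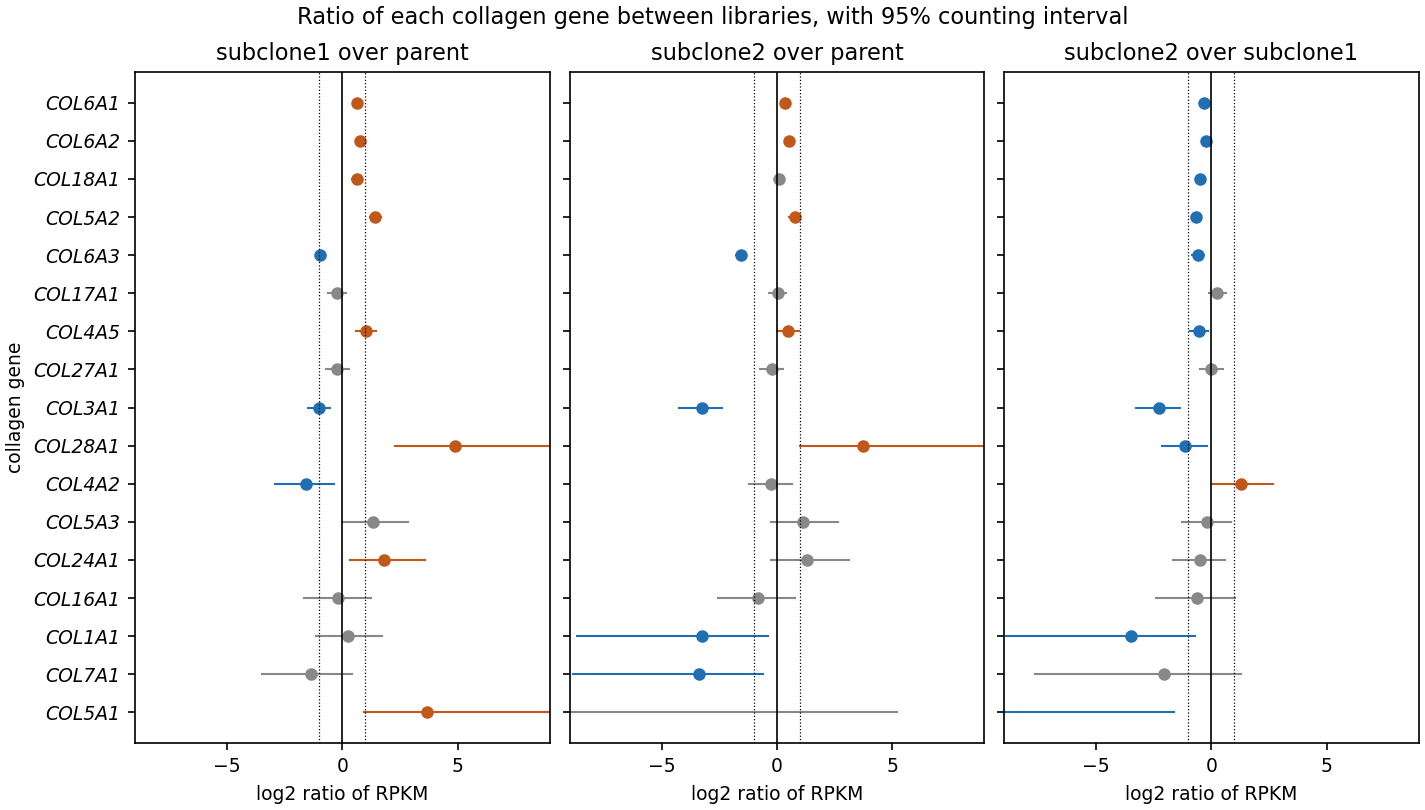
Log2 ratio of RPKM for the 17 collagen genes with at least 10 reads in a library, in the 3 comparisons, with 95% counting intervals (clipped at the axis ends); orange intervals lie above 0, blue below and grey include 0, and dotted lines mark 2-fold. Subclone1 over the parent has 8 genes above and 3 below, subclone2 over the parent 5 and 4, and subclone2 over subclone1 has 1 above (COL4A2) and 10 below, where 21.5% and 19.9%, 24.4% and 18.9%, and 12.5% and 9.14% of 9199 genes lay above and below; COL5A1 has no point where subclone2 has 0 reads. The 5 above and the 10 below include COL4A5, whose intervals there include a ratio of 1 with unmultiplied reads. The counts also hold genes that reached 10 reads only in the library where they are high, such as COL5A1, COL1A1 and COL7A1.

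Among these 17 genes, the interval of subclone1 over the parent lay above 1 for 8 and below 1 for 3, and included 1 for 6. Of all 9199 genes with resolved reads and at least 10 reads in a library, 21.5% lay above and 19.9% below. For subclone2 over the parent the counts were 5 above, 4 below and 8 including 1, against 24.4% and 18.9% of all genes. For subclone2 over subclone1 they were 1 above, 10 below and 6 including 1, against 12.5% and 9.14%. These shares depend on depth, and the median reads of a gene were 56 for the collagen genes and 162 for all. A gene also entered if only the library where it is high reached 10 reads, and the 9199 genes were chosen by the same rule. COL5A1 (1, 13 and 0 reads in the parent, subclone1 and subclone2) and COL1A1 (9, 11 and 1) entered through subclone1 alone. Both are among the 10 below, and COL5A1 is also among the 8 above. COL7A1 (10, 4 and 1) entered through the parent alone and lay below in subclone2 over the parent. COL4A2 was the gene higher in subclone2 than in subclone1 in the last comparison. The 5 above for subclone2 over the parent and the 10 below for subclone2 over subclone1 include COL4A5. With its unmultiplied reads, these 2 intervals of COL4A5 included 1 (0.651 to 3.06 and 0.361 to 1.28). The median log2 ratio of the 9 genes with a mean of at least 1 RPKM was 0.61, 0.10 and -0.51 in the 3 comparisons, where that of all 11370 genes was 0.00, 0.04 and 0.03.

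A difference of at least 2-fold on the log2 (RPKM + 0.1) scale was seen in few of these 9 genes. In subclone1 over the parent 1 was higher (COL5A2) and 0 lower, where 4.9% of all genes were higher and 1.82% lower. In subclone2 over the parent 0 were higher and 2 lower (COL3A1 and COL6A3), against 5.33% and 2.16% of all genes. In subclone2 over subclone1, 0 were higher and 1 lower (COL3A1), against 1.42% and 1.39%. Without a filter on level, 5 of 27 collagen genes were higher in subclone1 than in the parent (COL5A1, COL5A2, COL24A1, COL28A1 and COL5A3) and 2 lower (COL4A2 and COL9A3), against 9.43% and 5.47% of 16149 genes. In subclone2 over the parent, 2 were higher (COL9A1 and COL28A1) and 4 lower (COL1A1, COL3A1, COL6A3 and COL7A1), against 9.62% and 5.83%. In subclone2 over subclone1, 1 was higher (COL4A2) and 4 lower (COL1A1, COL3A1, COL5A1 and COL28A1), against 5.21% and 5.59%. At 1.5-fold, 5 of the 9 genes were higher and 2 lower in subclone1 over the parent, against 11.6% and 7.46% of the 11370 genes. There 1 was higher and 2 lower in subclone2 over the parent, against 12.7% and 7.3%, and 0 were higher and 2 lower between the subclones, against 4.75% and 4.11%. Counts this small are a description of these genes and not a property of the family.

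Genes that make, modify and crosslink collagen were given by a list of 43, of which 38 were listed and 33 had a mean of at least 1 RPKM. Of these 33, 3 were at least 2-fold higher in subclone1 than in the parent (LOX, LEPREL1 and LOXL4) and 1 lower (TXNDC5), where 4.9% and 1.82% of all genes were. In subclone2 over the parent 0 were higher and 2 lower (FKBP7 and TXNDC5), against 5.33% and 2.16%, and in subclone2 over subclone1, 0 were higher and 2 lower (LOX and LOXL4), against 1.42% and 1.39%. The median log2 ratio of the list was 0.27, 0.24 and -0.10, with 26, 23 and 10 of 33 genes above 0. For all 11370 genes the medians were 0.00, 0.04 and 0.03, with 5732, 6083 and 6420 genes above 0.

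**Figure D4:**
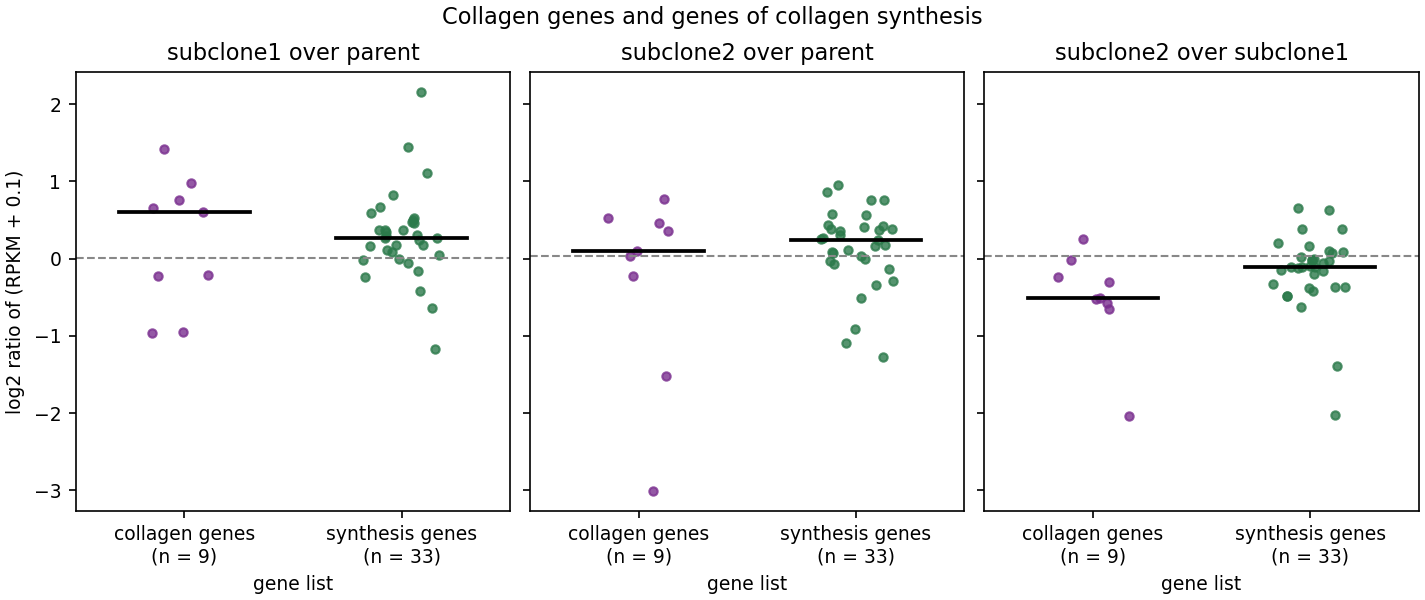
Log2 ratio of (RPKM + 0.1) in the 3 comparisons for the 9 collagen genes and the 33 genes of collagen synthesis with a mean of at least 1 RPKM; each point is a gene, the black line is the median of the list and the dashed line the median of 11370 genes. Collagen medians are 0.61, 0.10 and -0.51 and those of the synthesis genes 0.27, 0.24 and -0.10.

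The enzymes that hydroxylate prolines, a step needed for stable trimers, ranged widely in level. P4HB, the shared subunit of prolyl 4-hydroxylase, had 537 RPKM in the parent, 695 RPKM in subclone1 and 687 RPKM in subclone2. Of its catalytic subunits, P4HA1 had 19.6, 29.7 and 26.5 RPKM, and P4HA2 had 11.8, 20.9 and 20.0 RPKM. P4HA2 was 1.77-fold higher in subclone1 (1.43 to 2.20) and 1.70-fold higher in subclone2 (1.37 to 2.11) than in the parent, and the subclones had overlapping intervals. LEPREL1, a prolyl 3-hydroxylase now called P3H2, had 9, 28 and 20 reads (0.540, 1.64 and 1.14 RPKM) and was 3.03-fold higher in subclone1 than in the parent (1.39 to 7.30). CRTAP, of the same part of the list, went the other way with 63.4, 47.5 and 44.6 RPKM. It was 1.33-fold lower in subclone1 (1.25 to 1.43) and 1.42-fold lower in subclone2 (1.33 to 1.52) than in the parent. For LEPRE1 and LEPREL4, also of this part, the intervals over the parent included 1. The lysyl hydroxylases had 60.2, 78.1 and 59.9 RPKM for PLOD1, 77.6, 109.8 and 82.4 RPKM for PLOD2, and 82.9, 102.9 and 108.6 RPKM for PLOD3. SERPINH1, the collagen chaperone HSP47, had 74.5 RPKM in the parent, 73.7 RPKM in subclone1 and 58.5 RPKM in subclone2, so that subclone2 was 1.27-fold lower than the parent (1.15 to 1.42).

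The folding enzymes FKBP7 and TXNDC5 were highest in the parent, FKBP7 with 57, 37 and 24 reads and TXNDC5 with 26, 11 and 12 reads. LOX, the lysyl oxidase that starts crosslinks between collagen molecules, had 3.74 RPKM in the parent (87 reads, 3.00 to 4.62), 17.0 RPKM in subclone1 (406 reads, 15.4 to 18.8) and 6.42 RPKM in subclone2 (157 reads, 5.45 to 7.50). It was 4.54-fold higher in subclone1 than in the parent (3.60 to 5.80), more than any collagen gene with a mean of at least 1 RPKM, and 2.65-fold lower in subclone2 than in subclone1 (2.20 to 3.21). LOXL4 of the same family had 14, 33 and 7 reads, and LOXL2 had 21.2, 33.6 and 26.1 RPKM with reads not resolved. LOX and LOXL2 were highest in subclone1, whereas LOXL1, added here after its values were seen, was highest in subclone2. LOXL1 had 9.72 RPKM in the parent (103 reads), 11.5 RPKM in subclone1 (125 reads) and 17.7 RPKM in subclone2 (198 reads), which is 1.83-fold higher in subclone2 than in the parent (1.43 to 2.34) and 1.55-fold higher than in subclone1 (1.23 to 1.95).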

How the data were processed

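Messenger RNA of 3 cultured HCC lines was sequenced, with 1 library each, after Trizol extraction and library construction with a TruSeq kit from Illumina. Per gene, RPKM values were deposited by the authors, with genes above 0 listed, and the genome build in the submitters' processing notes is hg19. The aligner, counting tool, gene annotation and strand handling are not given in the sources used here. Groups were taken from the labels. Collagen genes were chosen by symbol, and the members and lists were chosen with earlier results of these data known.

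Ratios were computed as log2 (RPKM + 0.1), and genes with a mean of at least 1 RPKM (11370 of 16149) formed the background of medians and of counts at least 2-fold apart. No test was possible with 1 library per line. Library totals were recovered from genes with equal reads (626 and 596 genes for subclone1 and subclone2 against the parent) and from the common step of low values. Of 1500 genes, 77.4% then had a length within 10% of a GENCODE transcript, against 52.5% with doubled and 11.7% with halved totals. The smallest reads were multiplied by 2 for COL6A1 and by 5 for COL4A5 to fit a transcript length. Intervals of single genes are exact Poisson for RPKM and Clopper-Pearson for ratios at 95%. Intervals of ratios of sums are normal approximations by the delta method from the reads of each gene. They treat genes as independent and count COL21A1, whose reads were not resolved, as 1 read. The limit that 0 reads allows is 3 reads. The recovery was also run on simulated data in which each gene had the length of its longest GENCODE transcript. That run could not test genes counted over another length.

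Named genes were each collagen gene with a mean of at least 1 RPKM, each at least 2-fold different with at least 10 reads in a library, the chain partners of these, and of the synthesis list the main enzymes, LOX, LOXL2 and those at least 2-fold different. COL16A1, the other FACIT chains and COL8A2 are named to account for every gene. CRTAP, LEPRE1, LEPREL4 and LOXL1 were added after their values were seen. The other synthesis genes inside the 2-fold limits are not described. Promoter windows and gene order came from RefSeq GRCh38.p14 (no genome of the hg19 build was used). Alternatives were pseudocounts of 0.01 and 1, libraries set to equal sums, centring of the ratios at their median, scaling by upper quartile, ACTB or GAPDH, no filter or a mean of at least 5 RPKM, and 1.5-fold. Python 3.11.15, numpy 2.4.6, pandas 2.3.3, scipy 1.17.1 and matplotlib 3.10.9 were used.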

Additional observations from a re-analysis of the deposited data

Results flagged for a closer look

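The subclones lay on opposite sides of the parent for COL1A1 and COL5A1, and the difference was not tested. The log2 ratio of COL1A1 (RPKM + 0.1) was 0.20 in subclone1 and -1.69 in subclone2 over the parent, and -1.89 in subclone2 over subclone1, from 11, 1 and 9 reads in subclone1, subclone2 and the parent. For COL5A1 it was 1.78 in subclone1 and -0.34 in subclone2 over the parent, and -2.12 in subclone2 over subclone1, from 13, 0 and 1 reads in the same order. The intervals of COL1A1 in subclone1 over the parent (0.448 to 3.25) and of COL5A1 in subclone2 over the parent (upper end 37.0) included a ratio of 1.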

How the results depend on the processing

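Of 357 log2 ratios of the 17 collagen genes with at least 10 reads in a library, recomputed under the alternatives, 342 stayed within their counting interval, 15 moved beyond it and 3 changed sign, all of genes whose fold interval included 1 (COL17A1 in subclone2 over the parent when centred on the median, and COL27A1 between the subclones with ACTB and with GAPDH). A pseudocount of 1 gave 9 of the 15, among them log2 ratios over the parent of 1.42 (subclone1) and 0.79 (subclone2) for COL28A1, 0.38 (subclone1) for COL5A1, and -1.89, -0.37 and -0.28 (subclone2) for COL3A1, COL1A1 and COL7A1, and the other 6 were COL6A1 and COL6A2 with ACTB or GAPDH. Genes with few reads have wide intervals, so that the 342 reflect the width of intervals as well as stability. No paired analysis was possible because there was 1 library per line, and no library could be left out. Division by ACTB moved the median of all genes by -0.13 in subclone1 over the parent and by 0.12 between the subclones, and GAPDH moved the latter by 0.12. At 2-fold, 449 of the 11370 genes lay above and 328 below with ACTB in subclone1 over the parent, against 557 and 207 as deposited. In the same comparison GAPDH gave 511 and 249, and the upper quartile 582 and 194. In subclone2 over the parent GAPDH gave 681 and 215, against 606 and 246 as deposited. Between the subclones 219 were higher and 123 lower with ACTB, and 211 and 126 with GAPDH, against 161 and 158. The summed level of all collagens then had a log2 ratio of 0.49 in subclone1 over the parent and -0.19 between the subclones with ACTB, and 0.37 in subclone2 over the parent and -0.20 between the subclones with GAPDH. That of type VI was 0.49 in subclone1 over the parent with ACTB, and -0.16 between the subclones with ACTB and with GAPDH. Of the 9 collagen genes, 2 were at least 2-fold lower in subclone1 than in the parent with ACTB and with GAPDH (COL3A1 and COL6A3, from log2 ratios of -0.97 and -0.95). With a pseudocount of 0.01 or the upper quartile, 2 were higher there, COL4A5 beside COL5A2. Without a filter, 5 and 2 collagen genes were higher and lower in subclone1 over the parent, 2 and 4 in subclone2 over the parent, and 1 and 4 between the subclones, and the median log2 ratio in subclone1 over the parent was 0.13. With a mean of at least 5 RPKM, 1 was lower in subclone2 over the parent and 0 between the subclones, and the median in subclone2 over the parent was 0.35. At 1.5-fold, 5 were higher and 2 lower in subclone1 over the parent (11.6% and 7.46% of all genes), 1 was higher in subclone2 over the parent (12.7%) and 2 were lower between the subclones (4.11%). Of the synthesis genes, 1 was higher in subclone2 over the parent with a pseudocount of 0.01, with GAPDH and without a filter. With a pseudocount of 1, 1 was higher and 0 lower in subclone1 over the parent, and 0 lower in subclone2 over the parent. Without a filter, 5 were higher in subclone1 over the parent and 4 lower between the subclones. With a mean of at least 5 RPKM, 1 was higher and 0 lower in subclone1 over the parent, 0 lower in subclone2 over the parent and 1 lower between the subclones. With the same shares of all genes at 1.5-fold, 6 were higher and 2 lower in subclone1 over the parent, 4 were higher in subclone2 over the parent and 2 were higher between the subclones (4.75%). With unmultiplied reads, chosen after the data were seen, the COL4A5 intervals of subclone2 over the parent and over subclone1 included 1, at log2 ratios of 0.46 and -0.53. These counts move because genes near a threshold cross it or because fewer or more genes are tested. The share of all genes was not computed for the pseudocounts of 0.01 and 1 or for a mean of at least 5 RPKM. The counts of collagen and synthesis genes under those settings thus have no share to be judged by. Depth limits the genes under 10 reads, for which only large differences are detectable, and the variation between cultures of a line was not measured.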
